A study of Mus musculus with 9 samples.

Results

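The 9 genes of glucose sensing and beta cell maturity, Slc2a2, G6pc2, Abcc8, Trpm5, Ucn3, Entpd3, Sytl4, Gad1 and Prlr, were followed in polyadenylated RNA of mouse pancreatic islets. They were taken by symbol, 9 of the 23329 genes in the count table, and all 9 passed the filter on low counts. The table holds 9 libraries from male mice. The 4 libraries titled as controls carry the genotype label Pdx1+/-, and the 5 titled as mutants carry Pdx1A4, which the labels do not explain. Pdx1 is a transcription factor of beta cells. Age, strain, and whether each library is a separate animal are not given in the sources used here, and p-values therefore reflect library-to-library spread that may be technical.

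A beta cell releases insulin when glucose is taken up and metabolised, which closes ATP-sensitive potassium channels, depolarises the membrane and lets calcium trigger granule fusion. Slc2a2 encodes the transporter GLUT2. G6pc2 encodes an islet glucose-6-phosphatase that frees glucose from its phosphate, and Abcc8 the SUR1 subunit of the potassium channel. Trpm5 encodes a calcium-activated cation channel. Ucn3 encodes the peptide urocortin 3, which mouse beta cells acquire as they mature and which acts on delta cells, and Entpd3 an enzyme that breaks down extracellular nucleotides at the surface of beta cells. Sytl4 encodes granuphilin, a Rab27 effector that docks granules. Gad1 encodes a glutamate decarboxylase that makes GABA, and Prlr the prolactin receptor, through which beta cells respond in pregnancy.

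The sequences upstream of 4 of these genes are shown as examples, 3 whose groups did not overlap (Entpd3, Ucn3, G6pc2) and Slc2a2, whose groups did. Each is the 250 bases before a RefSeq transcript start (GRCm38.p6), written 5′ to 3′ on the gene's strand, and 8 of the 9 genes had an entry in the promoter table (all but Abcc8). Capitals mark matches on either strand to 5 motifs that were searched: TAATTA (homeodomain core, in 4.84% of 32851 promoters of this length), CAGATG (an E-box of the NeuroD type, 14.4%), TGCTGA (a MAF core, 16.1%), TGTTTAC (forkhead, 3.17%) and CACGTG (the E-box bound by clock factors, 6.02%). None of these matches overlapped another.
Entpd3, chr9:120539568-120539817, plus strand: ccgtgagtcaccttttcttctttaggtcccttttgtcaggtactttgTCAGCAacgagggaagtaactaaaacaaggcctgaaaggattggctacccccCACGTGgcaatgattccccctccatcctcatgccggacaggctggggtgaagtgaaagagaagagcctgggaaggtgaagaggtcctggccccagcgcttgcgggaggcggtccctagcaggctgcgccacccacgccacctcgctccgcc
Ucn3, chr13:3945350-3945599, minus strand: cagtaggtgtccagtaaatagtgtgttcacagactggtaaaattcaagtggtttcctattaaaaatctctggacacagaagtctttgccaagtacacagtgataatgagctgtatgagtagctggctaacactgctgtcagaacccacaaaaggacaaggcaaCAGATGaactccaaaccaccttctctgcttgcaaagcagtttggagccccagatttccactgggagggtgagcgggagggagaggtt
G6pc2, chr2:69210823-69211072, plus strand: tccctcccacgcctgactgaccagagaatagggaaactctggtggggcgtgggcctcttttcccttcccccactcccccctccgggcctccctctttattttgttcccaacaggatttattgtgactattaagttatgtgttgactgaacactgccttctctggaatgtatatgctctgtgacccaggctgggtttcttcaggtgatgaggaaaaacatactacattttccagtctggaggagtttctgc
G6pc2, downstream start, chr2:69219699-69219948, plus strand: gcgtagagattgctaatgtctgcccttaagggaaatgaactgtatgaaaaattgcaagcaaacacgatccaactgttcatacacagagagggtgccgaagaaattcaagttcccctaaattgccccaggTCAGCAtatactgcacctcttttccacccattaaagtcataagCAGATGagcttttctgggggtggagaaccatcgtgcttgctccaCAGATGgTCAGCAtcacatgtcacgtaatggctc
Slc2a2, chr3:28697653-28697902, plus strand: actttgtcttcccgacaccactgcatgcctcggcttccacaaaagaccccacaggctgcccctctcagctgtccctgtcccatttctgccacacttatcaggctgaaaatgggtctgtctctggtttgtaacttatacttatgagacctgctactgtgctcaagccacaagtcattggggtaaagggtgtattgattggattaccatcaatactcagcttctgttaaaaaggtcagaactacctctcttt
Entpd3 held 1 MAF core and 1 clock E-box, at -203 and -151 from the start, and Ucn3 held 1 E-box of the NeuroD type at -87. The downstream G6pc2 start had 2 matches to that E-box and 2 to the MAF core, while the upstream G6pc2 and the Slc2a2 windows had no match to the 5 motifs. The windows of Sytl4, which was called lower, and of Trpm5 also had no match. Gad1 held 1 MAF core, and of the 3 Prlr windows 1 held a MAF core, 1 an E-box of the NeuroD type, a MAF core and a forkhead match, and 1 no match. No window of the 8 genes held the homeodomain core. A match is a description of letters, and its absence covers these windows alone.

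Library totals ran from 6092010 to 7375376 counts in controls and from 7186462 to 9163253 in mutants. Pdx1 itself was at 29.5 ± 5.54 CPM in controls (CPM, library-scaled counts; SD, n = 4), against 12.9 ± 6.91 for the mutant libraries (SD, n = 5), a log2 fold change of -1.18 (edgeR adjusted p = 0.0461). Endocrine and exocrine transcripts moved in opposite directions. The 7 hormone genes took 16.9% to 21.0% of counts in controls and 0.0691% to 7.99% in mutants, lowest in mutant 2 and next lowest in mutant 3. Of 22 acinar markers 21 were found, none at 0, and their summed level ran from 22670 to 50235 CPM in controls and from 133964 to 288005 in mutants. The 13 ductal markers, none at 0, summed to 4411 to 12587 and 16541 to 28739 CPM. Alpha cell markers (10) summed to 8611 to 24246 CPM in controls and 193 to 8430 in mutants, and delta cell markers (7) to 1154 to 1444 and 17.4 to 579. Summed gamma and epsilon markers (6) ran from 13641 to 17390 and from 112 to 8865 CPM, endothelial markers (8) from 55.0 to 144 and from 4.45 to 87.9, macrophage markers (8 of 9 found) from 35.1 to 69.1 and from 8.49 to 95.9, and stellate cell and fibroblast markers (8) from 56.3 to 109.6 and from 2.83 to 114. Schwann cell and neuronal markers (7) summed to 8.55 to 15.1 and 0.944 to 9.69 CPM. No marker of these lists was at 0 in all libraries. The part of these shifts in the results below was not tested, and in bulk RNA fewer cells of a type and less RNA per cell cannot be told apart.

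Of the 9 genes, 4 fell in the mutants: Gad1, Entpd3, Abcc8 and Sytl4 (edgeR quasi-likelihood test over 12402 genes, Benjamini-Hochberg adjusted p under 0.05). None rose. Of all genes tested 11.8% were called lower and 20.6% higher. The log2 fold changes of the 9 ran from -2.81 (Gad1) to -0.81 (Slc2a2), with a median of -1.97 against 0.04 over all genes tested. In 6 of the 9 genes every mutant library lay below every control, as it did in 14.7% of all genes. DESeq2 called 8 of the 9 lower, all but Slc2a2, where it called 17.7% of its genes lower. With quality weights per library, limma-voom called 7, all but Slc2a2 and Prlr, against 18.5%. Without mutants 2 and 3 edgeR called 7 lower, all but Slc2a2 and Trpm5, against 9.78% of genes. Mutants 2 and 3 had the lowest hormone shares and the lowest sums of the 9 genes, at 44.5 and 182 CPM. Leaving them out narrows the spread among mutants, so fits without them are not independent of the values they test. The limma-voom weights count divergent libraries less and were set from the same values. Those of mutants 2 and 3 were not examined.

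**Figure D1:**
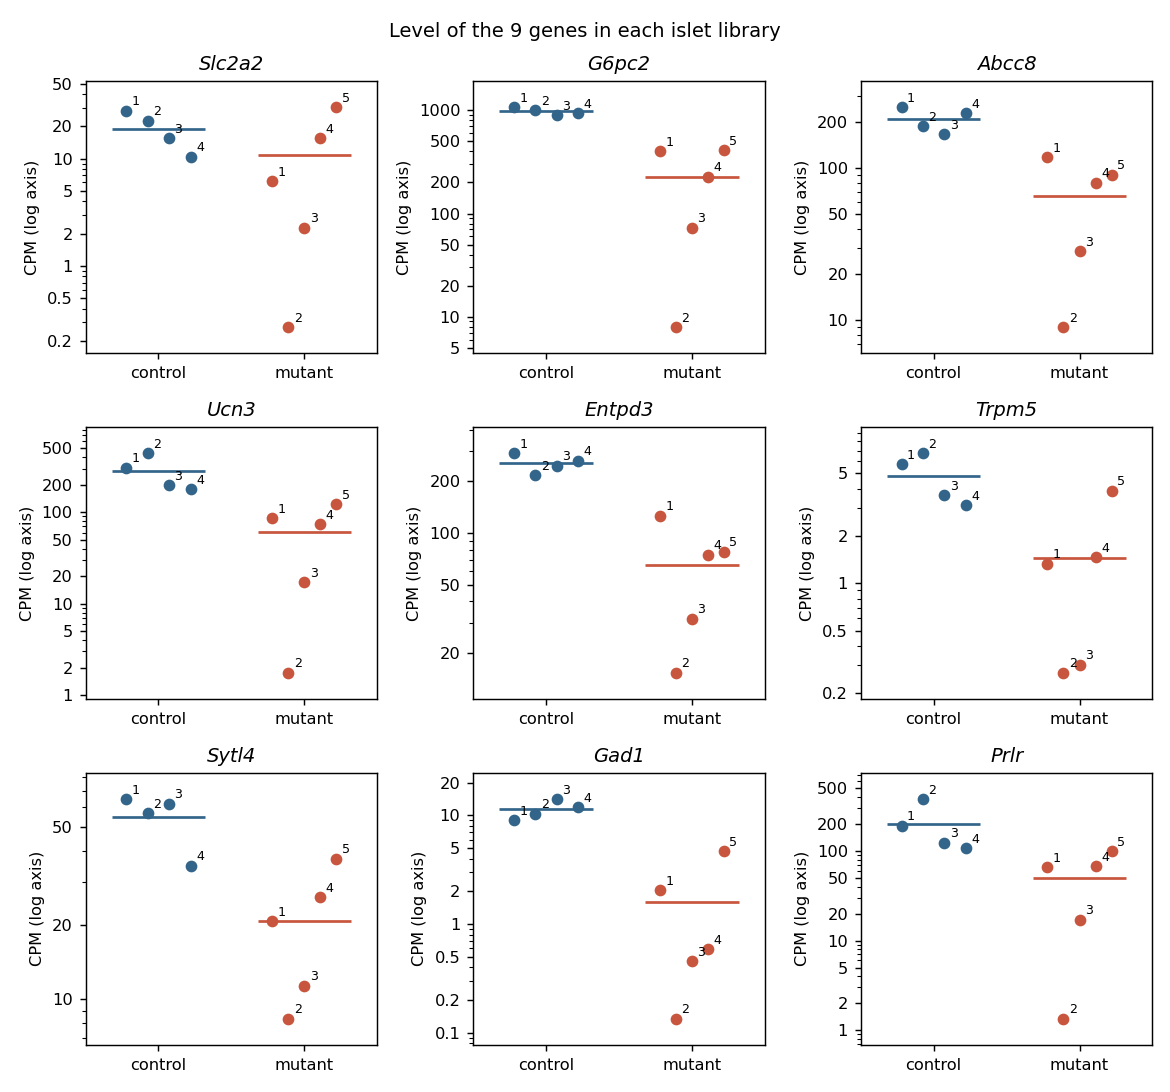
CPM (log axis) of the 9 genes in the 4 control and 5 mutant libraries; each point is 1 library, labelled with its replicate number, and the horizontal line is the group mean. Mutant 2 is the lowest library in every panel, and Slc2a2 in mutant 5 lies above all 4 controls.

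Uptake of glucose and its phosphorylation are the first steps of sensing. Slc2a2 (chr3:28697903-28731359) stood at 28.0, 22.5, 15.5 and 10.4 CPM in controls 1 to 4, against 6.18, 0.270, 2.28, 15.5 and 30.1 in mutants 1 to 5. Mutants 1 to 3 lay below all controls, mutant 4 among them, and mutant 5 above all of them, so the groups overlapped. The log2 fold change was -0.81 ± 0.86 (SE; 95% interval -2.72 to 1.10; edgeR adjusted p = 0.481). Without mutants 2 and 3 it was -0.20 (edgeR adjusted p = 0.795). Leaving out 1 library gave values from -1.65 to -0.56 (lowest edgeR adjusted p = 0.154). With replicate number as a block it was -2.31 (edgeR adjusted p = 0.143). The count in mutant 2 was 2, with an exact 95% Poisson interval of 0.242 to 7.22, which covers counting error only.

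G6pc2 (chr2:69211073-69227841) was the most abundant of the 9. It stood at 1068, 1001, 897 and 942 CPM in controls 1 to 4, against 400, 7.95, 73.0, 227 and 412 in mutants 1 to 5. All mutants lay below all controls, and the control libraries differed little, with a coefficient of variation of 7.57%. The log2 fold change was -2.12 ± 0.80 (SE), which did not pass with all 9 libraries (95% interval -3.90 to -0.35; edgeR adjusted p = 0.0638). It passed without mutant 2 (edgeR adjusted p = 0.0167) and without mutants 2 and 3, where it was -1.55 ± 0.25 (SE; edgeR adjusted p = 0.00597).

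Abcc8 (chr7:46104523-46180033, minus strand) had 251, 188, 168 and 229 CPM in controls 1 to 4, against 118, 9.03, 28.5, 80.3 and 90.7 in mutants 1 to 5. The groups did not overlap, and the log2 fold change of -1.68 ± 0.57 (SE) passed narrowly (edgeR adjusted p = 0.0480). The call was lost when any of controls 1 to 4 or mutants 3 to 5 was left out, with adjusted p of up to 0.106, and held without mutants 2 and 3 (log2 fold change -1.17, edgeR adjusted p = 0.0104). Trpm5 (chr7:143069153-143094642, minus strand) was the least abundant member per length in controls, at 5.74, 6.73, 3.63 and 3.13 CPM in controls 1 to 4, against 1.33, 0.270, 0.303, 1.46 and 3.88 in mutants 1 to 5. Mutant 5 lay among the controls and the other mutants below them. Its log2 fold change was -1.71 ± 0.66 (SE; edgeR adjusted p = 0.0683), and it passed without mutant 5 (log2 fold change -2.47, edgeR adjusted p = 0.0175). Its counts were 28 to 46 in controls and 2 to 29 in mutants, and 220 exon bases are shared with Tssc4 on the opposite strand, whose reads could not be told apart.

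Ucn3 (chr13:3940688-3945349, minus strand) had 307, 444, 198 and 178 CPM in controls 1 to 4, against 86.3, 1.75, 17.1, 73.6 and 123 in mutants 1 to 5. The groups did not overlap. The log2 fold change of -2.22 ± 0.83 (SE) did not pass with all libraries (95% interval -4.08 to -0.37; edgeR adjusted p = 0.0639). It passed without mutant 2 (edgeR adjusted p = 0.0211) and without mutants 2 and 3 (log2 fold change -1.62, edgeR adjusted p = 0.0126). Entpd3 (chr9:120539818-120568327) had 292, 217, 246 and 264 CPM in controls 1 to 4, against 126, 15.4, 31.7, 75.0 and 77.7 in mutants 1 to 5. The highest mutant was thus well under the lowest control. Its log2 fold change of -1.97 ± 0.49 (SE; edgeR adjusted p = 0.0150) passed in each of the 9 fits that left out 1 library (highest edgeR adjusted p = 0.0422).

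Sytl4 (chrX:133936385-133981812, minus strand) had 64.9, 56.9, 62.2 and 34.9 CPM in controls 1 to 4, against 20.7, 8.36, 11.4, 25.9 and 37.2 in mutants 1 to 5. Mutant 5 lay above control 4, so the groups overlapped although the fall passed, with a log2 fold change of -1.40 ± 0.40 (SE; edgeR adjusted p = 0.0249). The call was lost without control 1 or control 3 (edgeR adjusted p = 0.0671 and 0.0550). In mutant 2 Sytl4 was the least changed of the 9 genes.

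Gad1 (chr2:70553072-70602014) showed the largest fold change of the 9, at 9.02, 10.4, 14.2 and 11.9 CPM in controls 1 to 4, against 2.06, 0.135, 0.455, 0.585 and 4.68 in mutants 1 to 5. Its log2 fold change was -2.81 ± 0.71 (SE; edgeR adjusted p = 0.0154), and it passed in each fit that left out 1 library (highest edgeR adjusted p = 0.0371). The counts behind it were few, 66 to 121 among controls against 17, 1, 3, 4 and 35 for mutants 1 to 5, so its size is uncertain: the exact 95% Poisson interval of the single count in mutant 2 ran from 0.0253 to 5.57. The other glutamate decarboxylase gene, Gad2, had 0 counts in all 9 libraries, where absence cannot be told apart from reads that were not counted. Prlr (chr15:10177238-10349180) was the most uneven of the 9 in controls, with a coefficient of variation of 62.5%, at 191, 381, 124 and 108 CPM in controls 1 to 4, against 66.2, 1.35, 17.1, 68.0 and 99.8 in mutants 1 to 5. Mutant 5 came close to control 4 without overlap. Its log2 fold change of -1.99 ± 0.84 (SE) did not pass (95% interval -3.86 to -0.12; edgeR adjusted p = 0.0912), and did without mutant 2 (edgeR adjusted p = 0.0346) or without mutants 2 and 3 (-1.40, edgeR adjusted p = 0.0405). Prlr shares 203 exon bases with the overlapping gene model Gm21973.

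Per kilobase of annotated exon, control levels fell in the order G6pc2 (495 ± 37.4 CPM per kb, SD, n = 4), Ucn3 (191 ± 82.5), Entpd3 (67.9 ± 8.41), Abcc8 (25.8 ± 4.68), Prlr (13.1 ± 8.18), Sytl4 (10.7 ± 2.66), Slc2a2 (3.32 ± 1.35), Gad1 (1.49 ± 0.288) and Trpm5 (0.752 ± 0.267). Control ranges overlapped for the neighbours Abcc8 and Prlr, Prlr and Sytl4, and Slc2a2 and Gad1, and not for the other neighbours in this order. In mutants the order of the means kept G6pc2 first (114 ± 93.4 CPM per kb, SD, n = 5), Ucn3 next (40.8 ± 33.9) and Entpd3 after it (17.4 ± 11.6). Sytl4 (4.04 ± 2.26) then stood above Prlr (3.29 ± 2.63) and Trpm5 (0.227 ± 0.230) above Gad1 (0.207 ± 0.247), by less than their spread. Exon lengths merge all annotated isoforms (15339 bases for Prlr), so levels of genes with long alternative exons are understated.

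The mutant libraries differed widely in how low the 9 genes stood. The median change of the 9 genes from the control mean, in log2 CPM, was -1.41 in mutant 1, -4.85 in mutant 2, -3.10 in mutant 3, -1.49 in mutant 4 and -1.10 in mutant 5. The mean level of 22 pan-endocrine genes (granins, prohormone enzymes, vesicle proteins and endocrine transcription factors, none of them among the 9) changed by -1.03, -6.44, -3.28, -1.65 and -1.62 in the same libraries. The median in mutant 2 is the value of Gad1, which rests on 1 count. With the prior count a count of 0 reads -1.92 in log2 CPM, which limits how far genes of low control level can fall. The median and the pan-endocrine change are therefore not directly comparable in mutant 2. Within mutant 2 the 9 genes spread from -7.03 (Ucn3) to -2.63 (Sytl4), and within mutant 1 from -2.30 (Gad1) to -0.80 (Abcc8). Gad1 was also lowest in mutants 3 and 4, at -4.00 and -3.76. In mutant 5 the range ran from -1.70 (Entpd3) to 0.74 (Slc2a2), the 1 value above its control mean.

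**Figure D2:**
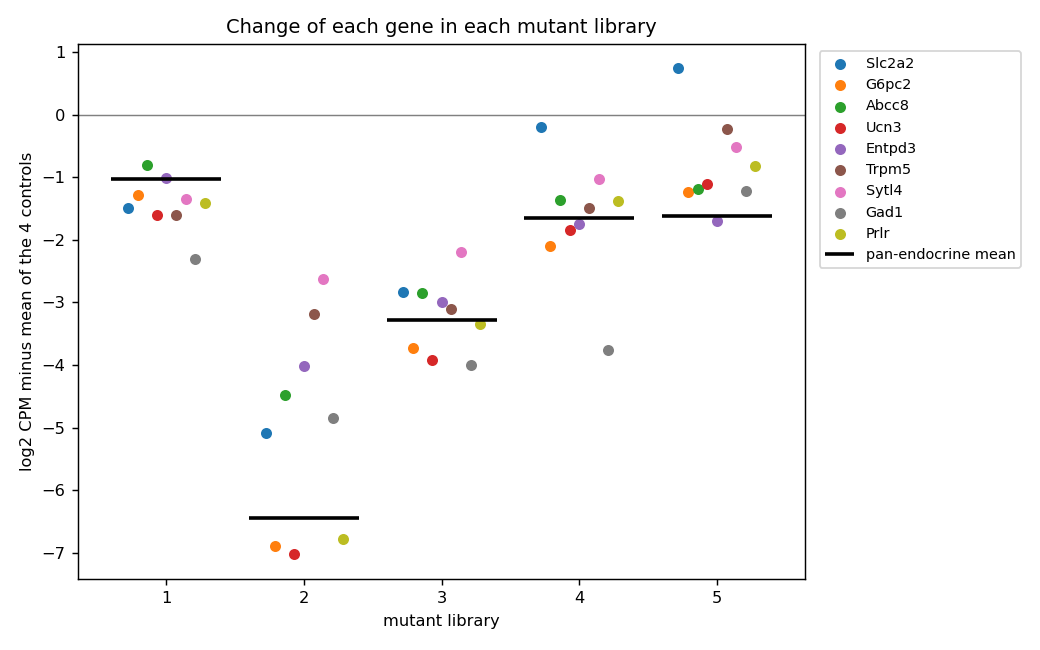
Change of each of the 9 genes in each mutant library, as log2 CPM minus the mean of the 4 controls; the black bar is the same change of the mean of 22 pan-endocrine genes. Medians run from -1.10 in mutant 5 to -4.85 in mutant 2, and Slc2a2 in mutant 5 is the 1 point above 0.

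With scaling to endocrine transcripts or adjustment for them, none of the 9 genes passed the test with all 9 libraries. With library scaling taken from the pan-endocrine genes alone, edgeR called 0 of the 9 in either direction, with 0 at an unadjusted p under 0.05, where it called 85.5% of all genes higher and 0.0887% lower. The median log2 fold change was 0.60 for the 9 and 4.91 for all genes, and single values ran from -0.85 (Gad1) to 2.41 (Sytl4), with standard errors from 0.84 to 1.61. Without mutants 2 and 3 the same scaling gave -0.24 for G6pc2, -0.24 for Entpd3, -0.23 for Ucn3, 0.01 for Prlr, 0.13 for Abcc8, 0.25 for Trpm5, 0.36 for Sytl4 and -0.97 for Gad1, none of which passed (lowest edgeR adjusted p = 0.127). There Slc2a2 was higher, at 1.27 ± 0.49 (SE; edgeR adjusted p = 0.0309), in a fit that called 72.5% of all genes higher. With the pan-endocrine mean as a covariate and all 9 libraries, edgeR called 0 of the 9, with 1 (Entpd3, log2 fold change -0.80, adjusted p = 0.0935) at an unadjusted p under 0.05, against 0.589% of all genes called lower and 4.32% higher. That mean ran from 8.30 to 8.86 log2 CPM in controls and from 2.16 to 7.57 in mutants, without overlap. The covariate fit thus compares groups at a level they did not share, and its lack of calls is not read as absence of change.

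**Figure D3:**
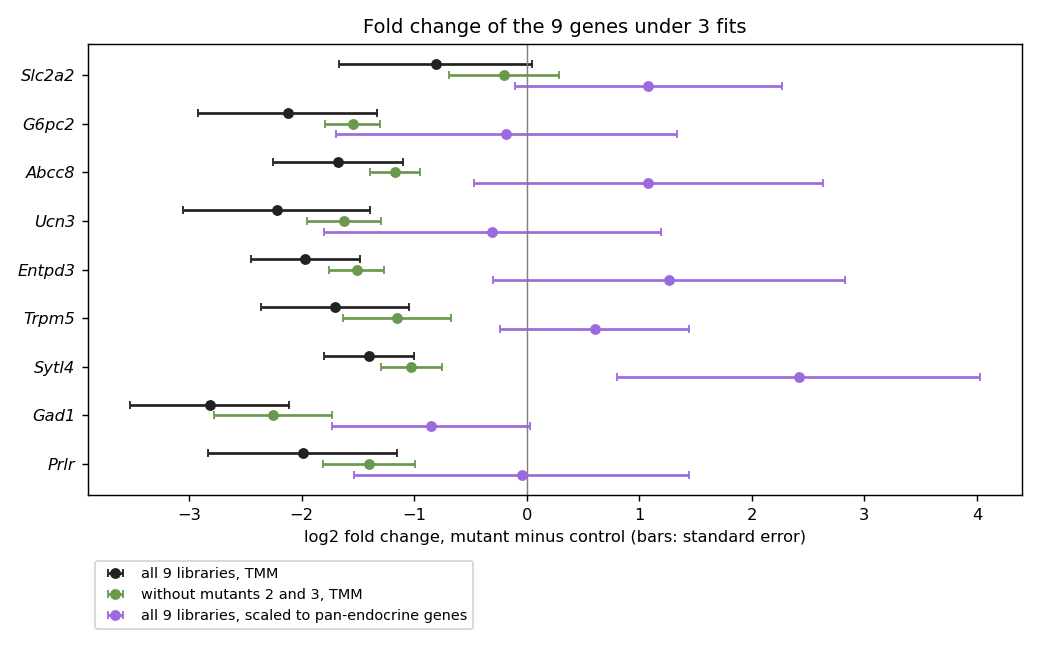
Log2 fold change of the 9 genes (mutant minus control; bars are standard errors) with all 9 libraries, without mutants 2 and 3, and with library scaling to pan-endocrine genes. The first fit lies between -2.81 and -0.81, and scaling to pan-endocrine genes moves the values to between -0.85 and 2.41.

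Ratios of counts within a library need no scaling; none was tested, and for each of the 3 pairs below the groups overlapped. Slc2a2 reached 0.0262, 0.0225, 0.0172 and 0.0110 of the G6pc2 count in controls 1 to 4, against 0.0154, 0.0339, 0.0312, 0.0683 and 0.0730 in mutants 1 to 5. It stood above all controls in 4 of 5 mutants, with mutant 1 among the controls, though on 2 and 15 Slc2a2 counts in mutants 2 and 3. Against Slc2a1, the broadly expressed transporter GLUT1, Slc2a2 reached 0.0318 to 0.163 in controls and 0.00112 to 0.198 in mutants, which spanned the controls on both sides. Abcc8 to Kcnj11, the pore subunit of the same potassium channel, was 7.77 ± 0.648 (SD, n = 4) among controls against 6.27 ± 1.15 (SD, n = 5) among mutants, the groups overlapping through mutant 4.

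**Figure D4:**
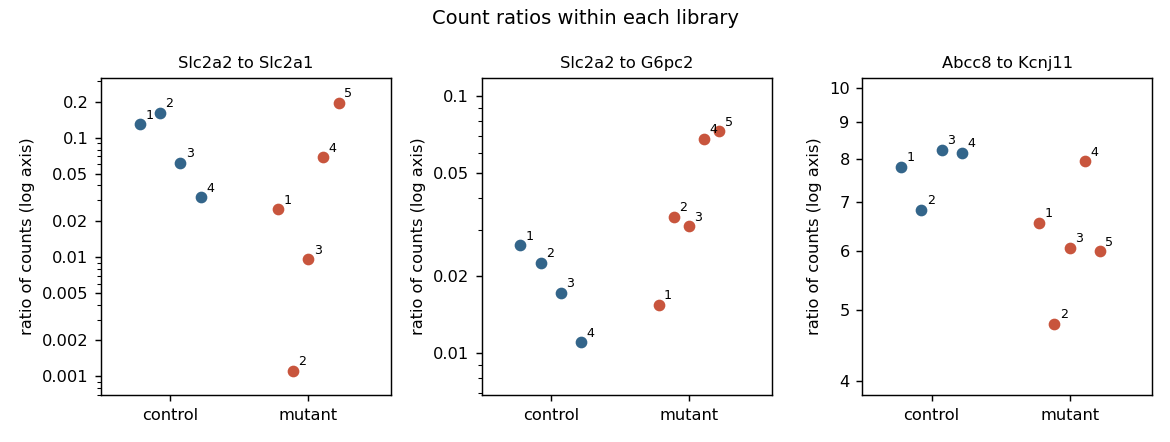
Ratio of raw counts (log axis) of 3 gene pairs in each library, labelled with the replicate number. Slc2a2 to G6pc2 is above every control in mutants 2 to 5, while Abcc8 to Kcnj11 stays between 4.79 and 8.24 in all 9 libraries.

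The counts of called partner genes below stand beside 11.8% of all genes tested called lower and 20.6% called higher. In the glucose entry and phosphorylation list 14 of 16 genes were found and 10 tested, of which 3 fell and 1 rose (median log2 fold change -0.43). Slc37a4, the transporter that carries glucose 6-phosphate to the phosphatases of the endoplasmic reticulum, fell from 100.2 ± 15.1 to 33.2 ± 8.52 CPM (log2 fold change -1.59, edgeR adjusted p = 0.00163). The transporter gene Slc2a3 fell by 2.42 on the log2 scale (edgeR adjusted p = 0.0178). The gene that rose was Hkdc1, of the hexokinase family, from 16.1 ± 4.08 to 61.2 ± 23.9 CPM (log2 fold change 1.92, edgeR adjusted p = 0.00387). Slc2a1 stood at 232 ± 78.3 and 220 ± 38.7 CPM (log2 fold change -0.08, edgeR adjusted p = 0.824; 0.13 without control 4 and 0.03 without mutant 5).

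Of 13 tested genes of potassium, calcium, sodium and TRP channels 3 fell and 0 rose, with 7 in which every mutant was below every control (median log2 fold change -1.42). Such non-overlap was found in 14.7% of all genes tested. Trpm4, a close relative of Trpm5, was at 0.49 (edgeR adjusted p = 0.404). Cacna1d, a voltage-gated calcium channel subunit, fell by 1.68 on the log2 scale (edgeR adjusted p = 0.00519), and Kcnj11 had a log2 fold change of -1.43 that did not pass (edgeR adjusted p = 0.0547), but did without mutant 1 or mutant 2 (edgeR adjusted p = 0.0266 and 0.0318). Among 14 other tested genes of mature beta cells 5 fell and 0 rose, and in 13 every mutant lay below every control (median -1.57). That was also so in 21 of the 22 pan-endocrine genes, and Neurod1 is on both lists. Ero1lb, an oxidase of disulfide formation, went from 343 ± 59.6 to 172 ± 28.1 CPM (log2 fold change -0.99, edgeR adjusted p = 0.00356). The prohormone convertase gene Pcsk1 fell by 1.57 (edgeR adjusted p = 0.0279), and this was lost without control 1 or control 3 (edgeR adjusted p = 0.0667 and 0.0551). The transcription factor gene Nkx6-1 had a log2 fold change of -1.49 that did not pass (edgeR adjusted p = 0.160), and Mafa, read at 0 throughout the controls and at a single count (1) in mutant 2 and in mutant 5, was not tested. How reads were assigned to genes is not given, so absence of Mafa RNA cannot be told apart from reads that were not counted. Of 6 tested genes linked to immature beta cells 2 rose and 0 fell (median -0.09). The neuropeptide gene Npy was at 6.36 ± 3.13 CPM in controls and 70.9 ± 42.3 in mutants (log2 fold change 3.47, edgeR adjusted p = 0.00387), and the neuronal gene repressor Rest had a log2 fold change of 1.66 (edgeR adjusted p = 0.00641).

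Called genes related to Sytl4 and Entpd3 stand beside the same shares of all genes, 11.8% lower and 20.6% higher. Of 12 tested Rab27, Rab3 and effector genes 5 fell and 4 rose (median -0.82). Rab27a, the GTPase that granuphilin binds, went from 346 ± 137 to 73.0 ± 53.8 CPM (log2 fold change -2.24, edgeR adjusted p = 0.0210), while Rab27b went from 32.1 ± 10.9 to 104 ± 17.6 (1.69, edgeR adjusted p = 0.00246). Sytl2, a synaptotagmin-like relative of Sytl4, rose by 1.90 on the log2 scale (edgeR adjusted p = 0.00326). Of 8 other tested ectonucleotidase genes 4 rose and 0 fell (median 0.97). Entpd2 was at 4.76 ± 1.18 CPM in controls and 46.2 ± 36.1 in mutants (log2 fold change 3.27, edgeR adjusted p = 0.00503), Enpp1 at 15.0 ± 4.91 and 104.8 ± 49.2 (2.80, edgeR adjusted p = 0.00255) and Entpd5 at 22.5 ± 2.15 and 56.9 ± 21.5 (1.33, edgeR adjusted p = 0.00570). The acinar and ductal sums were higher in the same libraries, and their part in these rises was not tested.

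The GABA and prolactin receptor lists are small, and nothing particular to them is read from their counts beside those same shares. Of 7 tested GABA genes 2 fell and 2 rose (median -1.14), and the receptor gene Gabbr2 fell by 2.50 on the log2 scale (edgeR adjusted p = 0.0217), a call lost without control 1 (edgeR adjusted p = 0.0590). Of 14 tested genes of growth hormone and prolactin receptor signalling 4 fell and 1 rose (median -0.72). The growth hormone receptor gene Ghr, close kin of Prlr, went from 297 ± 30.1 to 172 ± 24.4 CPM (log2 fold change -0.79, edgeR adjusted p = 0.00486), and the feedback inhibitor gene Socs3 fell by 1.20 (edgeR adjusted p = 0.00959). All 6 genes of the urocortin and corticotropin-releasing factor list were too low to test, and their counts together did not exceed 1.41 CPM in any library.

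**Figure D5:**
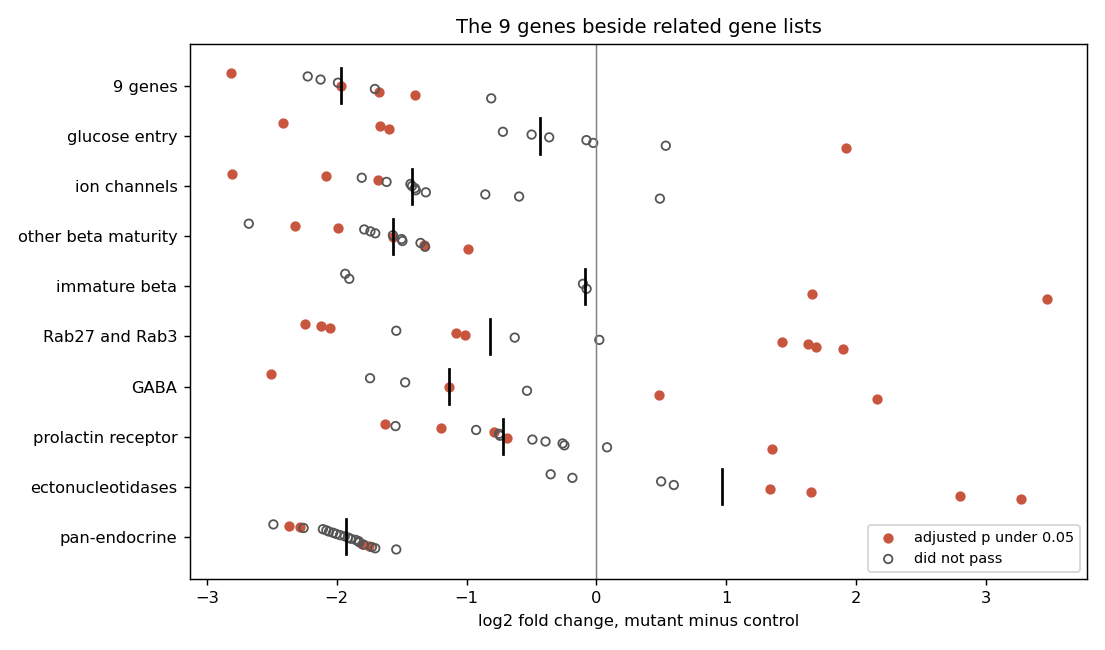
Log2 fold change (mutant minus control, all 9 libraries) of the tested members of each related list; filled points passed an adjusted p of 0.05, open points did not, and black lines are medians. The 9 genes (median -1.97) lie beside the pan-endocrine genes (median -1.93), and the ectonucleotidase median is 0.97.

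The pan-endocrine genes gave a background for the size of these changes. Of 22 tested, 4 fell and 0 rose, against 11.8% of all genes called lower and 20.6% called higher. Their median log2 fold change was -1.93, with a range from -2.49 to -1.54. Gad1 (-2.81) lay below that range, and Sytl4 (-1.40) and Slc2a2 (-0.81) above it. When 1 library was left out, Gad1 ran from -3.75 to -2.58, Sytl4 from -1.72 to -1.26 and Slc2a2 from -1.65 to -0.56. Among the 8309 tested genes that averaged 3 or more in log2 CPM, the profile closest to that of Entpd3 over the 9 libraries, by the root mean square difference of log2 CPM after centring on the control mean, was that of Acly, at 0.099. Next to it for Entpd3 came Slc2a5 (0.19). Abcc8 was closest to Tspan7 (0.14) and Rab3a (0.15), the latter itself on the pan-endocrine list, G6pc2 to Syt13 (0.20) and Atp2a3 (0.21), and Ucn3 to Lgi1 (0.24) and Slco1a6 (0.31). Sytl4 was closest to Maob (0.28), Prlr to Unc80 (0.30) and Trpm5 to Rufy3 (0.30). No gene searched came as near to Slc2a2 or Gad1, whose closest were Hepacam2 (0.56) and Crybb3 (0.62). Gad1 and Trpm5 themselves averaged less than 3 in log2 CPM, so genes at their own level were not searched. Gad1 also had only 1 to 4 counts in each of mutants 2 to 4, so its distance is not read as a distinctive profile.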

How the data were processed

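RNA of 4 control and 5 mutant islet libraries was compared. The authors deposited whole-number counts, 1 value per symbol and library, and no normalized values were used. The submitters' processing notes name STAR, RSEM, DESeq2 and mm10, among other tools, without roles. The counter, annotation and strand setting are not given in the sources used here. Groups and replicate numbers come from the sample titles.

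Counts were fitted with edgeR 4.0.16 (R 4.3.3) by its quasi-likelihood test after filterByExpr (12402 of 23329 genes) and TMM scaling, two-sided, with Benjamini-Hochberg adjustment over all genes and a threshold of 0.05. Intervals are at 95%, CPM is relative to TMM-scaled totals, and a prior count of 2 was added before taking log2. Alternatives used RLE scaling, scaling without hormone and acinar genes, scaling to pan-endocrine genes (TMM on that list) or their mean as covariate, and 2 other filters. Further ones used DESeq2 1.42.0, limma-voom 3.58.1 with quality weights, a replicate block and left-out libraries. The fit scaled to pan-endocrine genes without mutants 2 and 3 was added after the data were seen. The pipeline was tested on simulated data. No libraries of a group were copies within sampling noise. Totals of 6092010 to 9163253 counts limit genes with few counts.

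The members and lists were chosen with earlier results of these data known. Of the genes named, non-members came from each list's lowest p among called genes (up to 3), a fixed set of partners, and the closest profiles (2 per member). The text names part of them, and 1 listed gene is not reported here. Positions and exon lengths are those of GENCODE M21 (GRCm38), and promoters those of RefSeq (GRCm38.p6).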

Additional observations from a re-analysis of the deposited data

How the results depend on the processing

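Of the 9 genes, 4 were called lower and 0 higher with all libraries, against 11.8% and 20.6% of all genes. Scaled to pan-endocrine genes or with their mean as covariate 0 were called lower, against 0.0887% and 0.589%. DESeq2 called 8 (17.7% of all genes), limma-voom with quality weights 7 (18.5%) and the fit without mutants 2 and 3 called 7 (9.78%). Leaving out 1 library gave 2 (without control 1 or control 3) to 7 (without mutant 2). Over all genes, these 3 fits called 699 of 12634, 1072 of 12626 and 1629 of 12284 lower. The 1 member called higher was Slc2a2, under pan-endocrine scaling without mutants 2 and 3, where 0 were lower and 72.5% of all genes were higher. Leaving out 1 library never gave a member called higher (0 in each).

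Over all genes, 2560 were higher and 1462 lower, which became 10605 and 11 under pan-endocrine scaling, 9111 and 56 under that scaling without mutants 2 and 3, 536 and 73 with the covariate, and 1355 higher without mutants 2 and 3. DESeq2 called 2617 and limma-voom 2294 lower. Leaving out 1 library gave 1579 to 2702 higher and 699 to 1865 lower, with the lowest counts without mutant 3 and without control 1. RLE scaling shifted the median of all genes from 0.04 to -0.06 and gave 2156 higher and 2006 lower.

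Under pan-endocrine scaling the log2 fold change turned positive for Slc2a2 (1.08), Abcc8 (1.08), Entpd3 (1.26), Trpm5 (0.60), Sytl4 (2.41), Slc37a4 (3.05), Slc2a1 (4.96), Kcnj11 (1.52), Cacna1d (2.26), Ero1lb (3.87), Pcsk1 (1.80), Nkx6-1 (0.17), Rab27a (0.65), Ghr (4.08) and Socs3 (2.94). Without mutants 2 and 3 it did so for Slc2a2 (1.27), Abcc8 (0.13), Trpm5 (0.25), Sytl4 (0.36), Prlr (0.013), Slc2a1 (1.05), Kcnj11 (0.35), Ero1lb (0.39), Pcsk1 (0.23), Nkx6-1 (0.46), Ghr (0.55) and Socs3 (0.24). With the covariate it was positive for Slc2a2 (1.66), Ucn3 (0.15), Prlr (0.48) and Nkx6-1 (1.18), and edgeR calls were lost for Hkdc1 (adjusted p = 0.0516), Ero1lb (0.0565), Entpd5 (0.0575), Entpd2 (0.0621), Cacna1d (0.0634), Ghr (0.0804), Rest (0.0888), Rab27a (0.183), Socs3 (0.183), Pcsk1 (0.325), Slc2a3 (0.551) and Gabbr2 (0.840). The scaled fits measure change relative to endocrine transcripts, which were lower in mutants. The covariate fit compares groups at an equal pan-endocrine mean, which no mutant shared with a control, so lost calls there are not read as absence of change. The cause of a change of sign was not tested for single genes. Slc2a1 ranged from -0.35 to 0.13 when 1 library was left out (0.03 without mutant 5).

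Replicate numbers shared between groups gave no sign of pairing: deviations of same-numbered libraries correlated at 0.05, -0.02, 0.18 and -0.05, and control 1 correlated best with mutant 5 (0.22). These values would not show a pairing hidden under the wide spread among mutants. With the replicate block 5 of the 9 genes were called lower, adding Trpm5. Of all 12402 genes tested, 774 were lower in that fit and 1658 higher. There Slc2a1 was at 0.10, and the edgeR calls of Gabbr2 (adjusted p = 0.0507), Slc2a3 (0.0521) and Rab27a (0.0641) were lost. Depth limits Gad1, Trpm5 and Slc2a2, which had 1 or 2 counts in mutant 2.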

Other observations

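Relative to Ins1, the insulin 1 gene, urocortin 3 and the islet phosphatase had group ranges that overlapped. The ratio of Ucn3 to Ins1 counts was 0.0105 ± 0.00376 (SD, n = 4) among controls and 0.0105 ± 0.00380 (SD, n = 5) among mutants, with ranges of 0.00754 to 0.0157 and 0.00814 to 0.0172. The mutant mean rests in part on mutant 2, at 0.0172 with 13 Ucn3 counts, and the other mutants ran from 0.00814 to 0.00944. The ratio of G6pc2 to Ins1 was 0.0372 ± 0.00341 in controls and 0.0424 ± 0.0203 in mutants. Its highest value, 0.0781, was in mutant 2, which had 59 G6pc2 and 755 Ins1 counts, and the other mutants ran from 0.0288 to 0.0378. Ucn3 followed Entpd3 less closely: their ratio was 0.676 to 2.05 in controls and 0.114 to 1.58 in mutants. These ratios were chosen after the data were seen and were not tested.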
